A study of Rattus norvegicus with 24 samples.

Results

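Transcripts of 10 immediate early and cAMP-induced genes, most of them transcription factors, were measured in thyroids of male Sprague-Dawley rats, all adult. They are Egr1, Egr2, Fos, Fosl2, Junb, Jun, Atf3, Nr4a1, Crem and Ier3. Each gene was taken by the probe sets (groups of short probes for 1 transcript) that the platform annotation ties to its symbol alone, and was represented by the brightest of them over all arrays. All 10 were on the array, by 20 probe sets, among 14217 genes with such a probe set. Of the 10, 9 passed a filter that left out the dimmest 40% of probe sets; Fosl2 lay at the 33.47th percentile of signal and was not tested.

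Total RNA of 24 thyroid samples was hybridised to 24 Affymetrix arrays, in 8 groups of 3. At day 1 and at day 14 there were rats on a normal diet with perchlorate in the drinking water (95 mg of the potassium salt per liter), rats on an iodine-deficient diet with plain water, rats on the deficient diet with perchlorate, and controls on a normal diet and plain water. Perchlorate was given for 1 or 14 days, whereas the diet lasted 2 months plus the 1 or 14 days, so the diet groups of both days had been deficient for months. No genetic change was made in any group, and the labels do not state that every sample is a separate rat, so a p-value speaks only for the spread among samples, part of which may be technical.

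All levels below are log2 of the signal intensity after quantile normalization, and a difference is a difference of log2 levels. A level can be compared between arrays for 1 probe set, not between probe sets. A probe set was called where its adjusted p from limma (Benjamini-Hochberg over all 18625 probe sets tested) was under 0.05. The mean level of 9 follicular cell markers, the cells that make thyroid hormone, was high on every array, at 11.96 to 12.32 on the 18 treated arrays, against 11.77 to 11.88 on the 6 control arrays, without overlap. The list includes Slc5a5, the sodium iodide symporter, which itself lay at 11.51 to 12.75 on treated arrays, against 10.625 to 11.22 on control arrays. The mean was not taken without Slc5a5. The part of follicular cells in the differences below was not tested. The array of perchlorate day 1 replicate 18 stood apart. Its median absolute deviation from the median of all other arrays, of every group, was 0.675. On the other arrays it was 0.13 to 0.287, the highest being control day 1 replicate 22. Arrays of 1 group correlated at 0.924 to 0.983.

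Immediate early genes are switched on within minutes of a signal at the cell surface, without new protein synthesis, and mostly fall again soon after. In thyroid follicular cells the pituitary hormone TSH acts mainly through cAMP and protein kinase A, which phosphorylates CREB bound at cAMP response elements, while growth factors act through MAP kinases and the serum response factor SRF, which binds CArG boxes. Perchlorate blocks the uptake of iodide by the sodium iodide symporter, and a lack of iodide, whether from diet or from perchlorate, is known to raise TSH through lower thyroid hormone.

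The promoters of 5 members are shown. They set Egr2, which was called at day 14, beside members that were not. These are its relative Egr1, then Nr4a1, Junb and 2 of the 3 start sites of Crem. Promoters were at hand for 6 of the 10 members, and not for Fos, Jun, Atf3 or Ier3. Fos and Atf3, also called at day 14, are therefore absent here. Each line is the 250 bases before a RefSeq start site (build GRCr8), 5′ to 3′ in the direction of the gene, and capitals mark every match to a motif on either strand. The intervals are chr18:26736828-26737077 (+) for Egr1, chr20:21054442-21054691 (-) for Egr2, chr7:134259888-134260137 (+) for Nr4a1, chr19:40080876-40081125 (+) for Junb, and chr17:58984547-58984796 (+) and chr17:58985240-58985489 (+) for Crem.
Egr2: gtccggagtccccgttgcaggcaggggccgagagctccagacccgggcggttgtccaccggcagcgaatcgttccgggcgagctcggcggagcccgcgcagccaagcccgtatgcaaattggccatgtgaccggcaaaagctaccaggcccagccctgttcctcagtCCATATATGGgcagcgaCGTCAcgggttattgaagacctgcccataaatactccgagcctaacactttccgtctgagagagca
Egr1: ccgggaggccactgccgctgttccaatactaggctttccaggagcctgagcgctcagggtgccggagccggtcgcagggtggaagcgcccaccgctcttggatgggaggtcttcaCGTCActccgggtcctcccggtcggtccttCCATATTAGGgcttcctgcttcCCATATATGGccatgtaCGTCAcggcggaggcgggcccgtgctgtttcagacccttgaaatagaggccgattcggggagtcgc
Nr4a1: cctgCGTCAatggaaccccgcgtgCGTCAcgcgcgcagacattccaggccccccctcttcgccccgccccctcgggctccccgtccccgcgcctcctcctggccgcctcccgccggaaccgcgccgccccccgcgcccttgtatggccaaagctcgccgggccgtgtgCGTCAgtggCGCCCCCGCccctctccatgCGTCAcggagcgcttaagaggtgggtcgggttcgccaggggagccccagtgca
Junb: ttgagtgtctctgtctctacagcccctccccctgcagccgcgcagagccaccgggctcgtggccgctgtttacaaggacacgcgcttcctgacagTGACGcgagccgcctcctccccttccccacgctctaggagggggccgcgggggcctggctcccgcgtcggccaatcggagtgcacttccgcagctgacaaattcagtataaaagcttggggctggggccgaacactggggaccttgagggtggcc
Crem, start site 2: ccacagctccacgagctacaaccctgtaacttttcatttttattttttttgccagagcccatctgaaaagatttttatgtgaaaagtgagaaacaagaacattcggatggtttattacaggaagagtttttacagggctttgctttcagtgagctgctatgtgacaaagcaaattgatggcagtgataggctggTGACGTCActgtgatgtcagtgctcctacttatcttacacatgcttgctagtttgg
Crem, start site 3: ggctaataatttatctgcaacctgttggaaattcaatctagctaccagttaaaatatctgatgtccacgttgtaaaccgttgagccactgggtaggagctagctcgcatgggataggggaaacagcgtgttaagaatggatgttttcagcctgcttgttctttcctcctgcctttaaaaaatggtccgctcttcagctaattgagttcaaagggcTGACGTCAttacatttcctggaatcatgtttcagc

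The motifs searched for were the cAMP response element TGACGTCA, its short form TGACG, the CArG box, the EGR site GCGGGGGCG and the AP-1 site TGANTCA. The full element contains the short form on both strands, so it also counts as 2 short forms that overlap. In the Egr2 promoter a CArG box lay at positions -83 to -74 from the start site and a short form, read on the other strand as CGTCA, at -66 to -62. Egr1 had a CArG box of the same letters and a short form at those same positions, and in addition a CArG box at -105 to -96 and a short form at -135 to -131. Nr4a1 held 4 short forms and 1 EGR site, and Junb 1 short form. Start sites 2 and 3 of Crem each held a full element, at -56 to -49 and at -35 to -28. Crem is known to have an internal promoter that gives the short repressor ICER, and the table does not say which start site that is. Start site 1 of Crem held 2 short forms and Fosl2 held 1 EGR site. Among 33469 rat promoters of this length, 1.59% held the full element, 18.2% the short form, 1.5% a CArG box, 2.45% the EGR site and 6.34% the AP-1 site. A match describes the letters and is no measure of binding.

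The clearest differences lay between rats on the deficient diet with perchlorate and controls at day 14. Egr2, Atf3 and Fos rose, by 2.41-, 2.66- and 2.37-fold, while the differences of Junb and Crem were -0.01 and 0.33 and did not pass. Of the 9 members tested, 3 were called by their brightest probe sets, all higher, in a comparison in which 8.85% of all probe sets were called and 6.1% were called higher. The median difference over the 9 tested members was 1.01, against -0.06 over all probe sets tested. For 7 of the 10 members, by the same probe sets, all 3 treated arrays lay above all 3 control arrays, which 16.2% of all probe sets did. In samples of whole tissue, more cells of a type and more RNA per cell cannot be told apart.

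**Figure D1:**
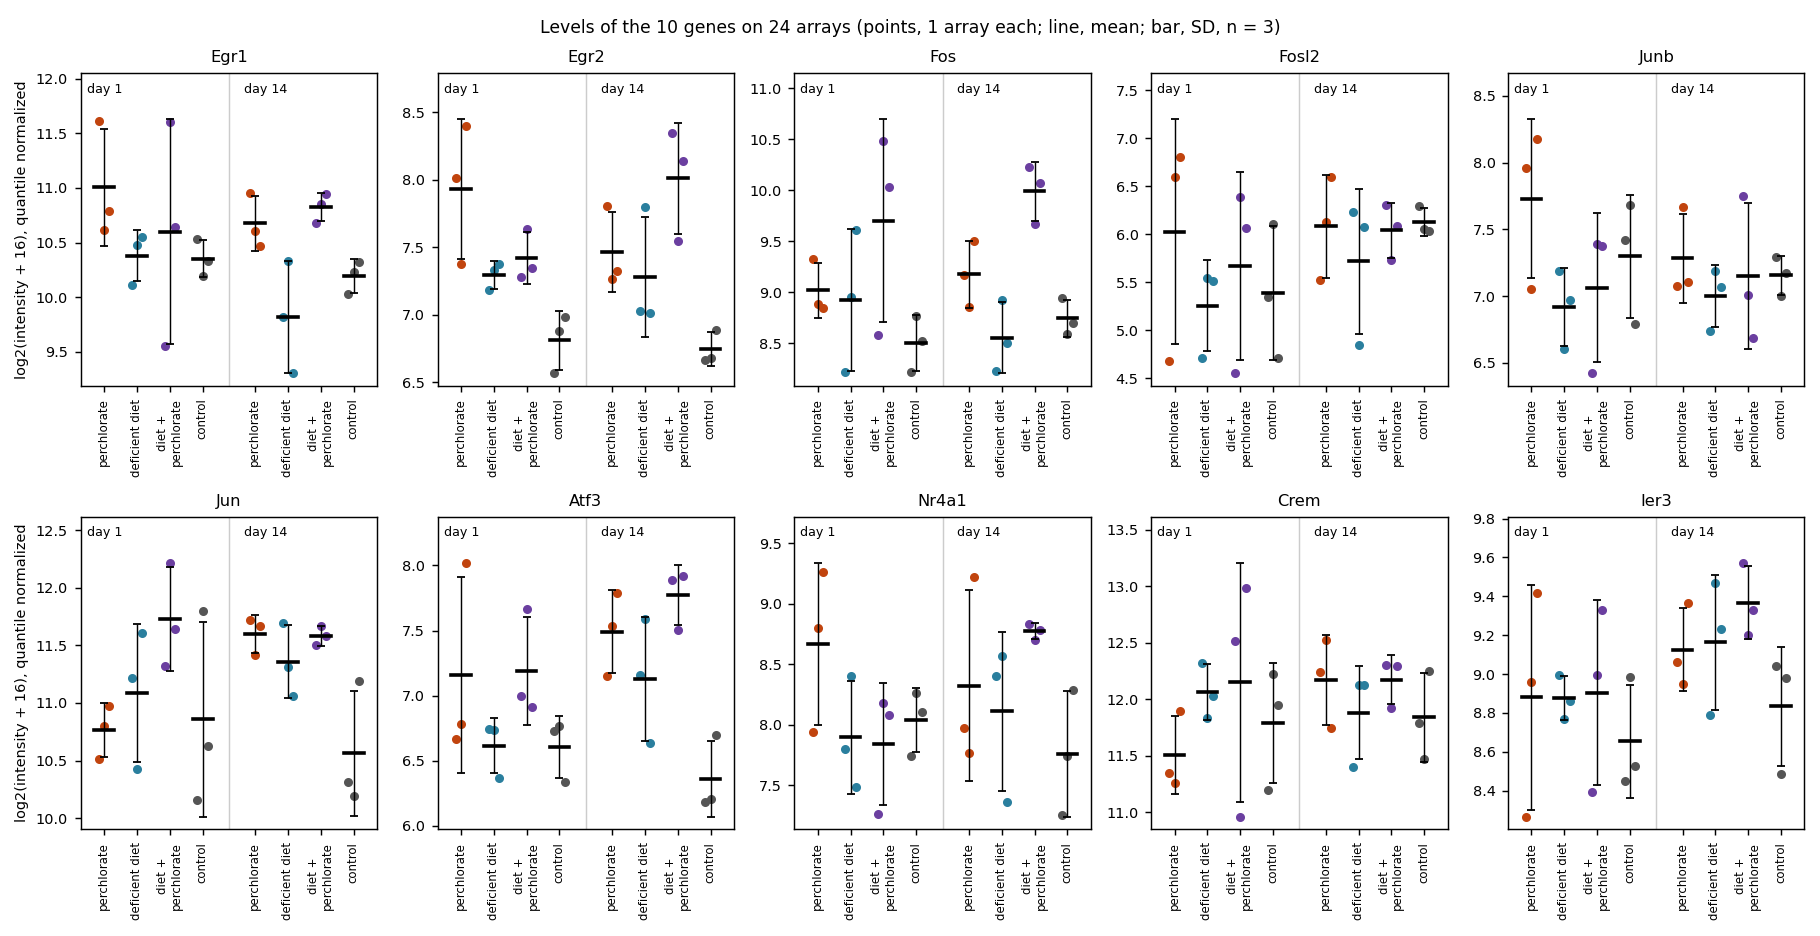
Levels of the 10 genes (y axes, log2 of intensity plus 16, quantile normalized) in the 8 groups (x axes), 1 point per array, with the group mean as a line and the SD as a bar (n = 3). Every treated array of Egr2 lies above every control array, while the groups of Junb, Crem and Fosl2 overlap at day 14.

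Of the EGR zinc finger factors, which bind GC-rich sites and relay growth factor signals, Egr2 had the smallest p over the 8 groups by the brightest probe sets of the members. At day 14 it measured 8.35, 7.55 and 8.14 on the diet plus perchlorate arrays, against 6.67, 6.68 and 6.89 on the control arrays. All treated arrays were higher than all controls, and the difference was 1.27 (SE 0.257, 2.41-fold, n = 3 each, adjusted p = 0.00317). The perchlorate arrays of day 14 measured 7.80, 7.27 and 7.32 and the deficient diet arrays 7.03, 7.80 and 7.01. Both groups lay above the same controls without overlap, yet neither passed the test: the difference was 0.72 for perchlorate (SE 0.257, adjusted p = 0.149) and 0.53 for the deficient diet (SE 0.257, adjusted p = 0.524).

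At day 1 Egr2 measured 8.01, 7.38 and 8.40 on the perchlorate arrays, 7.18, 7.33 and 7.38 on the deficient diet arrays and 7.28, 7.64 and 7.34 on the diet plus perchlorate arrays, against 6.57, 6.88 and 6.98 on the control arrays. Each treated group was again above the controls with no overlap. The difference for perchlorate, 1.12 (SE 0.257), had an unadjusted p of 0.000275 and an adjusted p of 0.284, in a comparison where no probe set of 18625 was called. Without perchlorate replicate 16 it was 1.40 (adjusted p = 0.0259) and without perchlorate replicate 18 and control replicate 22, the arrays that stood apart, it was 0.92 (adjusted p = 0.758). From high to low, the group means of Egr2 were 8.01 for diet plus perchlorate at day 14, 7.93 for perchlorate at day 1, 7.46 for perchlorate at day 14, 7.42 for diet plus perchlorate at day 1, 7.29 for the deficient diet at day 1 and 7.28 at day 14, 6.81 for control at day 1 and 6.74 for control at day 14. Taken over both days, all 18 treated arrays lay above all 6 control arrays, as they did for 0.0376% of the probe sets tested, a count made after these values were seen. On the values without quantile normalization 17 of the 18 did. Neighbours in the order of means overlapped, except that the deficient diet arrays of day 14 all lay above the control arrays of day 1. Over the 8 groups Egr2 varied more than its spread (F = 6.28, adjusted p = 0.012), as did 7.8% of probe sets. The second probe set of Egr2 was too dim to be tested.

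Egr1, the best known member of the family and a rapid target of SRF, was not called. At day 14 it measured 10.68, 10.85 and 10.94 on the diet plus perchlorate arrays and 10.96, 10.61 and 10.47 on the perchlorate arrays, against 10.03, 10.23 and 10.32 on the control arrays. All of these treated arrays lay above the controls, by 0.63 (SE 0.349, adjusted p = 0.312) for the combination and 0.48 (SE 0.349, adjusted p = 0.634) for perchlorate, and neither passed the test. The deficient diet arrays, at 9.82, 10.33 and 9.30, overlapped the controls (difference -0.38, SE 0.349, adjusted p = 0.865). At day 1 the diet plus perchlorate arrays spread from 9.55 to 11.61, against 10.19 to 10.53 on control arrays. On perchlorate alone at day 1 Egr1 measured 11.62, 10.62 and 10.79, above every control array, with a difference of 0.66 (SE 0.349, adjusted p = 0.517).

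Fos, the AP-1 subunit that pairs with Jun proteins, was called for the combination. At day 14 it measured 10.23, 9.67 and 10.08 on diet plus perchlorate arrays, against 8.94, 8.59 and 8.70 on control arrays. The groups did not overlap and differed by 1.25 (SE 0.366, 2.37-fold, adjusted p = 0.0356). The call was lost under 8 of 13 other settings, among them the values without quantile normalization (1.26, adjusted p = 0.0752) 5 of 6 fits that left out 1 array (adjusted p up to 0.148) and the mean of all probe sets of the gene (0.47, adjusted p = 0.219). The second probe set of Fos, too dim to be tested, averaged 5.37 on diet plus perchlorate arrays, against 5.68 on control arrays. The perchlorate arrays measured 9.17, 8.86 and 9.50 and the deficient diet arrays 8.23, 8.93 and 8.51, and both overlapped the controls. Their differences were 0.43 (adjusted p = 0.722) and -0.19 (adjusted p = 0.973, SE 0.366 each). At day 1 the perchlorate arrays of Fos, from 8.85 to 9.33, lay above the controls of that day, by 0.52 (SE 0.366, adjusted p = 0.603).

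Fos on diet plus perchlorate also lay above Fos on the deficient diet alone at day 14, by 1.44 (SE 0.366, 95% interval 0.67 to 2.20, unadjusted p = 0.000778), with no overlap. After adjustment by limma this did not pass (adjusted p = 0.117), and 0.209% of all probe sets were called in that comparison. At day 1 the diet plus perchlorate arrays of Fos measured 8.58, 10.48 and 10.04, against 8.22, 8.77 and 8.52 on control arrays. The low array, replicate 2, overlapped the controls, and the difference of 1.20 (SE 0.366, adjusted p = 0.175) became 1.76 (adjusted p = 0.00671) without it. It was 0.81 (adjusted p = 0.632) without replicate 3 and 0.62 (adjusted p = 0.289) when its probe sets were averaged. That array was the lowest of its group for 8 of the 10 members, all but Atf3 and Crem. Its skeletal muscle markers averaged 11.10, against 8.19 and 5.49 on the other arrays of the group, and its endothelial markers 9.6, against 10.90 and 10.75. Their part in its levels was not tested.

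Fosl2, a later-acting relative of Fos, was dim throughout, with levels from 4.55 to 6.80 on treated arrays and 4.71 to 6.29 on control arrays. At day 14 the diet plus perchlorate arrays measured 6.30, 5.73 and 6.08, on both sides of the control range of 6.03 to 6.29. Junb, an AP-1 subunit that often opposes Jun, measured 7.75, 7.01 and 6.69 on diet plus perchlorate arrays at day 14, against 7.29, 7.0 and 7.17 on control arrays. The mean difference was -0.01 with a 95% interval of -0.68 to 0.67. Its largest difference from control in either direction was 0.43 for perchlorate at day 1 (SE 0.323, adjusted p = 0.622), where replicate 18, the array that stood apart, was the highest at 8.18.

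Jun, the main partner of Fos in AP-1, was measured by 3 probe sets that gave different calls. The brightest, which represents the gene, measured 11.50, 11.67 and 11.58 on diet plus perchlorate arrays and 11.72, 11.41 and 11.67 on perchlorate arrays at day 14, against 10.31, 10.19 and 11.19 on control arrays. All treated arrays were higher than the controls, but the differences of 1.02 for the combination (SE 0.345, adjusted p = 0.0712) and 1.04 for perchlorate (SE 0.345, adjusted p = 0.112) did not pass. On the second brightest probe set Jun was called higher in both groups, by 1.26 for the combination (SE 0.263, adjusted p = 0.00386) and 1.14 for perchlorate (SE 0.263, adjusted p = 0.0167). The third also was called, at 1.25 (SE 0.261, adjusted p = 0.00378) and 1.03 (SE 0.261, adjusted p = 0.0289). The calls for perchlorate were lost under 4 of 12 other settings on the second brightest (adjusted p up to 0.107) and 5 of 12 on the third (adjusted p up to 0.149). Over the 8 groups F was 11.1 on the second brightest (adjusted p = 0.000792) and 11.7 on the third (adjusted p = 0.000591). Both are annotated with the same sequence record, so they are not independent readings of Jun. On the deficient diet alone at day 14 these 2 probe sets lay above the controls without overlap, by 0.83 (adjusted p = 0.218) and 0.89 (adjusted p = 0.178), and were not called.

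The 3 probe sets parted most at day 1. On the brightest, the diet plus perchlorate arrays measured 11.32, 12.22 and 11.65, against 10.15, 11.80 and 10.62 on control arrays, and control replicate 22 lay inside the treated range (difference 0.87, SE 0.345, adjusted p = 0.337). On the second brightest the same arrays measured 11.06, 12.50 and 11.81, against 10.14, 10.33 and 10.39 on control arrays, so control replicate 22 was not high there. The difference was 1.5 on that probe set (SE 0.263, 2.83-fold, adjusted p = 0.00583) and 1.49 on the third (SE 0.261, 2.81-fold, adjusted p = 0.00574). These calls were lost under 1 of 12 and 2 of 12 other settings (adjusted p up to 0.16 and 0.165). With the 3 probe sets averaged, Jun was called at day 14 for the combination (1.18, adjusted p = 0.00604) and for perchlorate (1.07, adjusted p = 0.0231). For the combination at day 1, Jun was called under 3 of 13 other settings, averaging among those run. Its difference there ran from 0.52 to 1.34 (adjusted p from 0.0213 to 0.786).

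**Figure D2:**
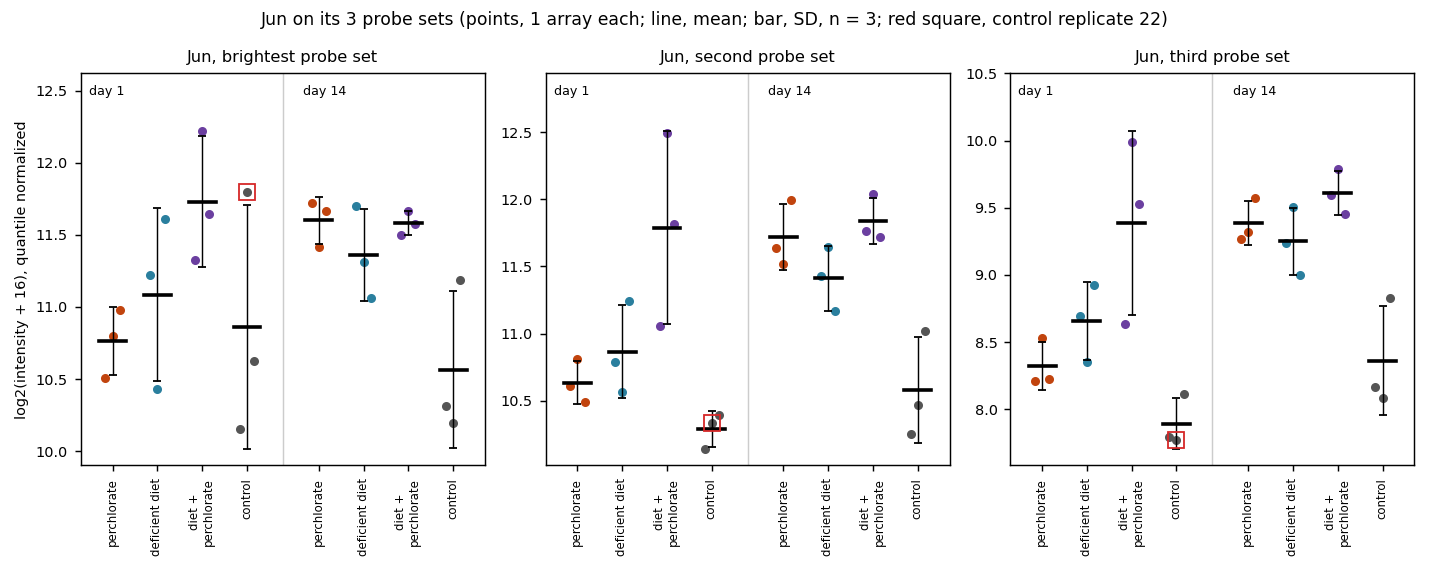
Jun on its 3 probe sets (y axes, log2 of intensity plus 16, quantile normalized) in the 8 groups (x axes), 1 point per array, with mean and SD (n = 3). The red square marks control day 1 replicate 22, at 11.80 on the first probe set and in or near the range of its group on the other probe sets.

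Atf3, a stress-induced member of the ATF/CREB family that mostly represses, was called in 2 comparisons. At day 14 it measured 7.89, 7.51 and 7.92 on diet plus perchlorate arrays, against 6.18, 6.20 and 6.69 on control arrays. The groups did not overlap and differed by 1.41 (SE 0.31, 2.66-fold, adjusted p = 0.00548). On perchlorate alone at day 14 it measured 7.15, 7.53 and 7.79, also above every control array, with a difference of 1.13 (SE 0.31, 2.19-fold, adjusted p = 0.0444). That was the 1 member of 9 called by its brightest probe set for perchlorate at day 14, where 3.57% of all probe sets were called and 2.9% were called higher. The call for perchlorate was lost in each of 6 fits that left out 1 array (adjusted p from 0.0554 to 0.223) and with no filter (adjusted p = 0.0785), and without the arrays that stood apart it was 1.14 (adjusted p = 0.00897). These comparisons use the same control arrays.

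On the deficient diet alone at day 14 Atf3 measured 7.16, 7.58 and 6.64, overlapping the controls by 1 array, and differed from them by 0.77 (SE 0.31, adjusted p = 0.393). At day 1 it measured 6.66, 6.78 and 8.02 on perchlorate arrays, 6.74, 6.74 and 6.37 on deficient diet arrays and 6.99, 7.67 and 6.91 on diet plus perchlorate arrays, against 6.73, 6.76 and 6.33 on control arrays. The diet plus perchlorate arrays were above the controls and above the deficient diet arrays (differences of 0.58, adjusted p = 0.525, and 0.57, adjusted p = 0.899). The high perchlorate value was that of replicate 18. From high to low, the group means of Atf3 were 7.77 for diet plus perchlorate at day 14, 7.49 for perchlorate at day 14, 7.19 for diet plus perchlorate at day 1, 7.16 for perchlorate at day 1, 7.13 for the deficient diet at day 14, 6.62 for the deficient diet at day 1, 6.61 for control at day 1 and 6.36 for control at day 14. Each pair of neighbours in that order overlapped. Over the 8 groups Atf3 varied (F = 4.78, adjusted p = 0.0362), a call lost under 13 of 30 other settings (adjusted p up to 0.104), and Fos fell short (F = 4.20, adjusted p = 0.0569).

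Nr4a1, an orphan nuclear receptor that needs no ligand and is induced by cAMP in endocrine cells, measured 8.83, 8.70 and 8.79 on diet plus perchlorate arrays at day 14, against 7.25, 7.74 and 8.29 on control arrays. The treated arrays agreed closely (SD 0.068) and lay above the controls, but the difference of 1.01 (SE 0.397, 95% interval 0.19 to 1.84) did not pass (adjusted p = 0.127). The perchlorate arrays of day 14 measured 7.97, 7.77 and 9.22 and overlapped the controls. At day 1 Nr4a1 averaged 8.67 ± 0.67 on perchlorate arrays, 7.89 ± 0.47 on deficient diet arrays and 7.84 ± 0.51 on diet plus perchlorate arrays, against 8.04 ± 0.26 on control arrays (SD, n = 3 each), and none differed by the test.

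Crem, the gene of the cAMP-responsive modulators and of ICER, a repressor that switches cAMP targets off again, was not called. It measured 12.31, 11.92 and 12.29 on diet plus perchlorate arrays at day 14, against 11.79, 11.47 and 12.25 on control arrays, which overlapped (difference 0.33, SE 0.372, 95% interval -0.44 to 1.11). None of the 6 Crem probe sets was called against control at either day. The smallest p among them was that of a dimmer probe set for diet plus perchlorate at day 1 (1.11, SE 0.369, adjusted p = 0.229). The files do not say which probe set reads ICER.

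Ier3, a stress-induced gene of cell survival that is no transcription factor, measured 9.57, 9.20 and 9.33 on diet plus perchlorate arrays at day 14, against 9.04, 8.48 and 8.98 on control arrays. The treated arrays lay above the controls, by 0.53 (SE 0.266, adjusted p = 0.253), and the perchlorate arrays, at 9.06, 8.95 and 9.36, overlapped them. The difference between the days over all treatments was 0.29 (SE 0.133, unadjusted p = 0.0382, adjusted p = 0.19).

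**Figure D3:**
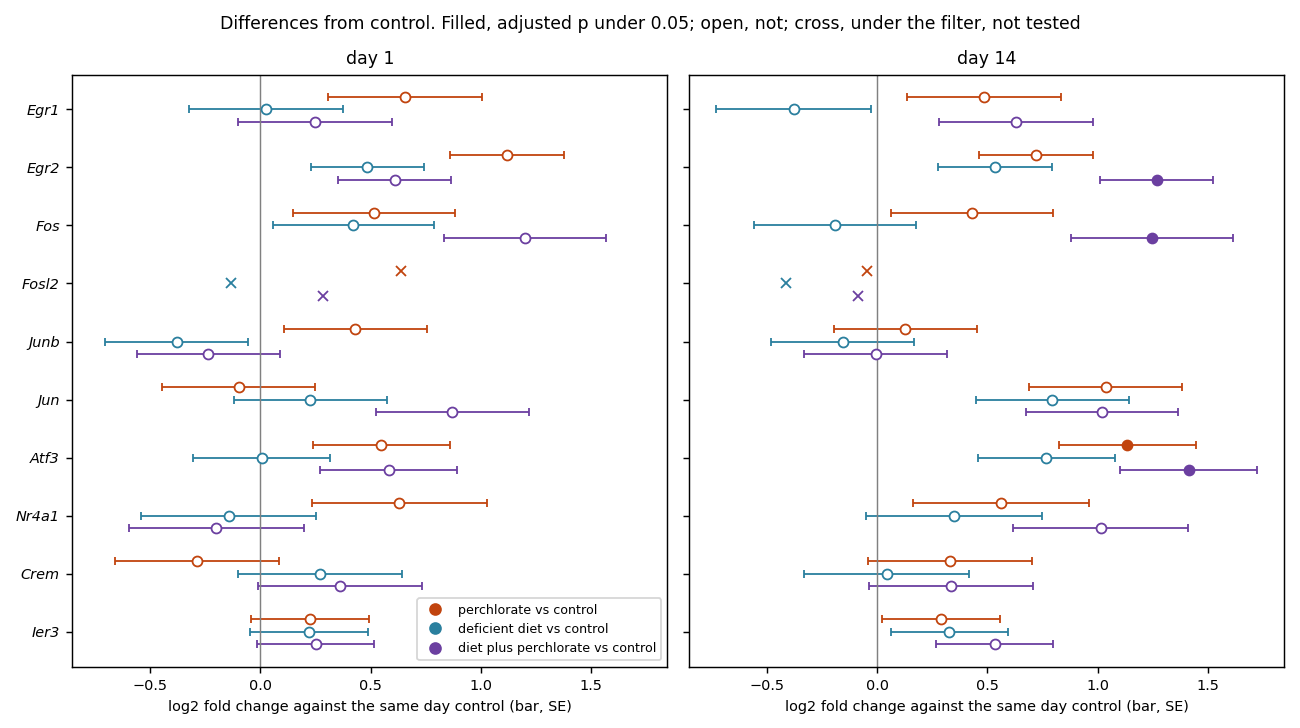
Log2 fold change of each gene against the control of the same day (x axes; bars, SE) at day 1 and day 14, with perchlorate, the deficient diet and the combination in 3 colours. Each gene is drawn by its brightest probe set. Filled points have an adjusted p under 0.05, which among those drawn only Egr2, Fos and Atf3 reach, at day 14; crosses are Fosl2, which was not tested.

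By its brightest probe set, no member was called at day 1 or for the deficient diet alone, while the dimmer probe sets of Jun were called for the combination at day 1, as given above. At day 1 the share of all probe sets called was 0% for perchlorate (1888 at an unadjusted p under 0.05, Egr2 among them), 0.0537% for the deficient diet and 0.601% for the combination, by limma. By the brightest probe sets, members whose 3 treated arrays lay above all controls at day 1 were Egr1, Egr2 and Fos for perchlorate (2.92% of probe sets did so), Egr2 for the deficient diet (5.79%), and Egr2 and Atf3 for the combination (7.94%). For the deficient diet at day 14, 0.22% of probe sets were called, and Egr2 was the 1 member above the controls without overlap by its brightest probe set, as were 10.6% of probe sets; the dimmer probe sets of Jun were too. For perchlorate at day 14 Egr1, Egr2, Jun and Atf3 were, against 12.6% of probe sets.

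Perchlorate added to the deficient diet gave no called member. At day 14 all 10 members, with Fosl2 untested among them, were higher on the combination than on the deficient diet alone. The median difference was 0.48 over the 10, against -0.025 over all probe sets tested. How many of all probe sets were higher was not counted. By the brightest probe sets, the groups did not overlap for Egr1 (1.01, SE 0.349, adjusted p = 0.351), Fos and Nr4a1 (0.66, SE 0.397, adjusted p = 0.758), as was so, in that direction, for 11.7% of probe sets. At day 1, 0.00537% of probe sets were called in this comparison, and Atf3 was the 1 member that did not overlap by its brightest probe set, against 7.29% of probe sets.

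Whether the 2 exposures added up was tested by the interaction of diet and perchlorate, and no member was called at either day (0.0107% of probe sets at day 1 and 0.0161% at day 14). Egr2 at day 1 had the smallest p, with the combination below the sum of the separate differences (-1.0, 95% interval -1.75 to -0.24, adjusted p = 0.458). Fos at day 14 lay 1.01 above the sum (95% interval -0.07 to 2.08, adjusted p = 1), so these arrays leave a wide range. For perchlorate alone, the difference at day 14 minus that at day 1 was 1.13 for Jun (95% interval 0.12 to 2.15, adjusted p = 0.344) and 0.58 for Atf3 (95% interval -0.33 to 1.5, adjusted p = 0.616). No member was called there (0.553% of probe sets) or between the days over all treatments (5.98% of probe sets), except for Jun by its dimmer probe sets, which were higher at day 14 by 0.49 (adjusted p = 0.03) and 0.59 (adjusted p = 0.0105), and Crem by its dimmest (0.97, adjusted p = 0.0454).

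Related genes were taken from lists of immediate early, cAMP and SRF genes. Their counts stand beside the share of all probe sets called at day 14. That was 8.85% for the combination (6.1% higher) and 3.57% for perchlorate (2.9% higher). Of 13 other immediate early transcription factors tested, 1 was called for the combination at day 14, Maff, a small MAF factor that partners AP-1-like proteins. It measured 7.25, 6.88 and 7.29 on diet plus perchlorate arrays, against 5.97, 5.86 and 5.68 on control arrays (difference 1.30, SE 0.386, adjusted p = 0.0369). The call of Maff was lost under 7 of 13 other settings (adjusted p up to 0.129). The median difference of these 13 was 0.09, against -0.06 over all probe sets. For perchlorate at day 14 none of the 13 was called, by limma, and 2 had an unadjusted p under 0.05.

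Of 28 other immediate early and feedback genes tested, 6 were called higher for the combination at day 14 and 5 for perchlorate, and none lower. Of all probe sets, 6.1% and 2.9% were called higher. Sgk1, a kinase that controls ion transport, measured 12.11, 12.12 and 12.12 on diet plus perchlorate arrays and 12.22, 11.75 and 12.37 on perchlorate arrays, against 10.31, 10.35 and 10.23 on control arrays. The control arrays lay over 1 log2 unit below all of these, and the differences were 1.82 in both groups (SE 0.317, adjusted p = 0.000955 for the combination and 0.00205 for perchlorate). Ier5, Tnfaip3, which restrains NF-kappaB signals, and Errfi1, which restrains the EGF receptor, also rose in both, by 0.92, 0.83 and 1.07 for the combination and 0.86, 0.76 and 0.74 for perchlorate. Their calls for perchlorate were lost under 6 of 12 other settings for Ier5 (adjusted p up to 0.216), 3 of 13 for Tnfaip3 (up to 0.0938) and 5 of 13 for Errfi1 (up to 0.195). Gadd45b, a stress and cell cycle gene (1.10, adjusted p = 0.00141), and Dusp6, a phosphatase of ERK kinases (0.76, adjusted p = 0.0227), were called for the combination, and Dusp6 was not under 5 of 13 other settings (adjusted p up to 0.126). Ccn1, a secreted matrix protein induced through SRF and YAP, was called for perchlorate (2.24, SE 0.442, adjusted p = 0.00554), and its difference for the combination was 1.05 (adjusted p = 0.16). The median difference of the 28 genes was 0.25 for the combination and 0.29 for perchlorate. Tnfaip3 was also called for the combination at day 1 (0.87, adjusted p = 0.0145), a call lost under 5 of 13 other settings. Gadd45b was called for the combination against the deficient diet at day 14 (1.09, adjusted p = 0.0257), a call lost under 7 of 13.

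Of 19 tested genes of the CREB family, its coactivators and the cAMP kinase, Pde4b, a phosphodiesterase that breaks down cAMP, was the 1 gene called against control, in each of 4 comparisons. At day 14, 3.57% of all probe sets were called for perchlorate, 0.22% for the deficient diet and 8.85% for the combination. For the combination at day 1 it was 0.601%. At day 14 Pde4b measured 10.26, 10.06 and 10.31 on perchlorate arrays, 9.70, 9.64 and 9.73 on deficient diet arrays and 10.27, 10.25 and 10.51 on diet plus perchlorate arrays, against 8.85, 8.84 and 9.0 on control arrays. The 3 treated groups lay clear above the controls, by 1.31 for perchlorate (SE 0.151, adjusted p = 4.73e-05), 0.79 for the deficient diet (SE 0.151, adjusted p = 0.0296) and 1.44 for the combination (SE 0.151, adjusted p = 6.75e-06). The call of Pde4b for the deficient diet was lost under 7 of 13 other settings (adjusted p up to 0.161). At day 1 it was called for the combination (1.08, SE 0.151, adjusted p = 0.00132), and perchlorate alone gave -0.03 (SE 0.151, adjusted p = 0.952). The perchlorate difference of Pde4b at day 14 exceeded that at day 1 by 1.34 (adjusted p = 0.0044).

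Of 11 tested genes of the SRF and MAP kinase arm, Elk3, an ETS cofactor of SRF, was the 1 gene called at day 14, by 1.52 for the combination (SE 0.252, adjusted p = 0.000632) and 1.32 for perchlorate (SE 0.252, adjusted p = 0.00437). Of all probe sets, 8.85% were called for the combination and 3.57% for perchlorate. Of 5 tested partners of EGR and AP-1 proteins none was called against control by limma. Among the related genes Nab2 varied over the 8 groups (F = 9.66, adjusted p = 0.00169), as did 7.8% of probe sets. It was called under 30 of 30 other settings. Among 9 tested genes of heat shock and handling stress, Hspa1a, an inducible HSP70, was called for the combination at day 14. It measured 9.44, 9.49 and 10.43 on diet plus perchlorate arrays, against 7.60, 7.89 and 7.82 on control arrays (difference 2.02, SE 0.429, adjusted p = 0.0043). The median difference of these 9 genes was -0.01, and the part of handling in the levels of the members was not tested.

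**Figure D4:**
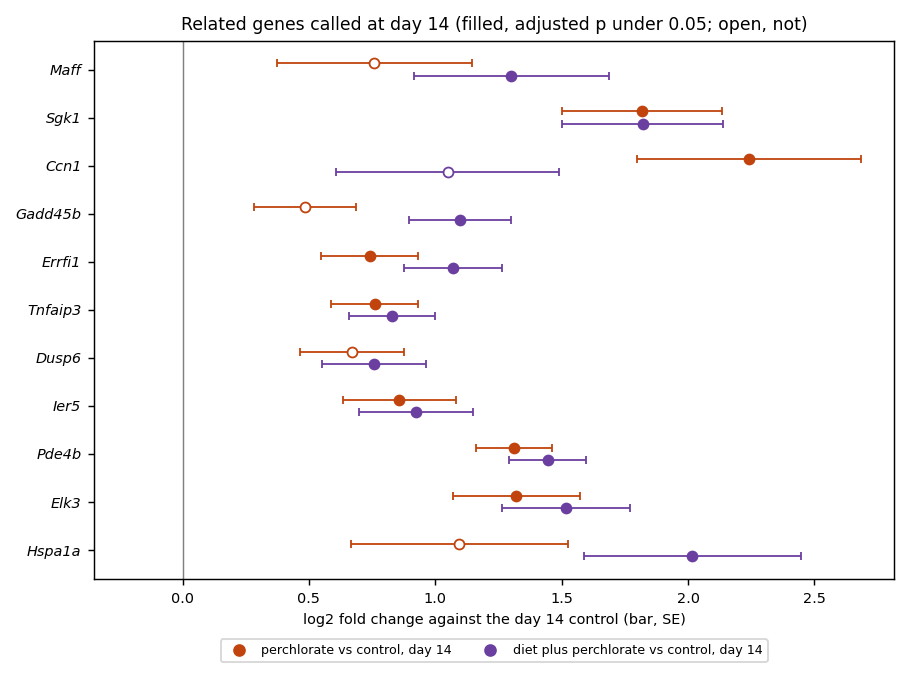
Log2 fold change against the day 14 control (x axis; bars, SE) of the 11 related genes called for perchlorate or for the combination, in 2 colours. Filled points have an adjusted p under 0.05; all values lie above 0, from 0.49 for Gadd45b on perchlorate to 2.24 for Ccn1 on perchlorate.

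Markers of several other cell types also differed from the controls at day 14, on the deficient diet as well. The mean level of 7 endothelial markers was 10.81 to 11.33 on perchlorate arrays, 10.58 to 10.88 on deficient diet arrays and 11.15 to 11.30 on diet plus perchlorate arrays, against 9.75 to 10.13 on control arrays. That of 8 macrophage markers was 8.13 to 8.88 on perchlorate arrays, 8.11 to 8.54 on deficient diet arrays and 8.53 to 9.12 on diet plus perchlorate arrays, against 7.29 to 7.74 on control arrays. Both lists lay higher in every treated group of day 14 with no overlap. Lymphocyte markers averaged 8.94, 5.68 and 7.76 on perchlorate day 1 replicates 15, 16 and 18, against 5.53 to 6.03 on control arrays. In the same order Egr2 measured 8.01, 7.38 and 8.40 there, and Nr4a1 7.94, 8.80 and 9.26. At day 14 lymphocyte markers reached 7.93 on 1 diet plus perchlorate array and 7.05 on 1 deficient diet array. On the diet plus perchlorate arrays of day 14, 2 parathyroid markers measured 11.58 to 12.51, against 13.03 to 13.11 on control arrays. On the same diet plus perchlorate arrays 7 adipocyte markers averaged 7.54 to 7.99, against 8.43 to 9.04 on control arrays, and 4 C cell markers 9.62 to 9.95, against 10.52 to 10.76, both lower without overlap. Skeletal muscle markers spread from 5.33 to 11.10 over all arrays. The part of these cells in the differences of the members was not tested.

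How the members moved together was described within groups, after the mean of each group was taken off. Over the 36 pairs of the 9 tested members and 24 arrays, Pearson's r had a median of 0.319 and ran from -0.457 to 0.693, and 31 pairs were positive. Atf3 and Nr4a1 had the highest r, 0.693 (Spearman's rho 0.651, permutation p = 0.00675 and 0.0107, 0.243 and 0.284 after adjustment over the 36 pairs), and 0.626 without the 2 arrays farthest from the median of Atf3. Egr1 and Fos followed, at 0.682 (rho 0.488, permutation p = 0.0276 and 0.0677, 0.331 and 0.284 after adjustment), and fell to 0.343 without the 2 arrays farthest on Egr1, so this relation rests on those arrays. No pair passed the adjustment, and all points share their arrays and normalization.

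**Figure D5:**
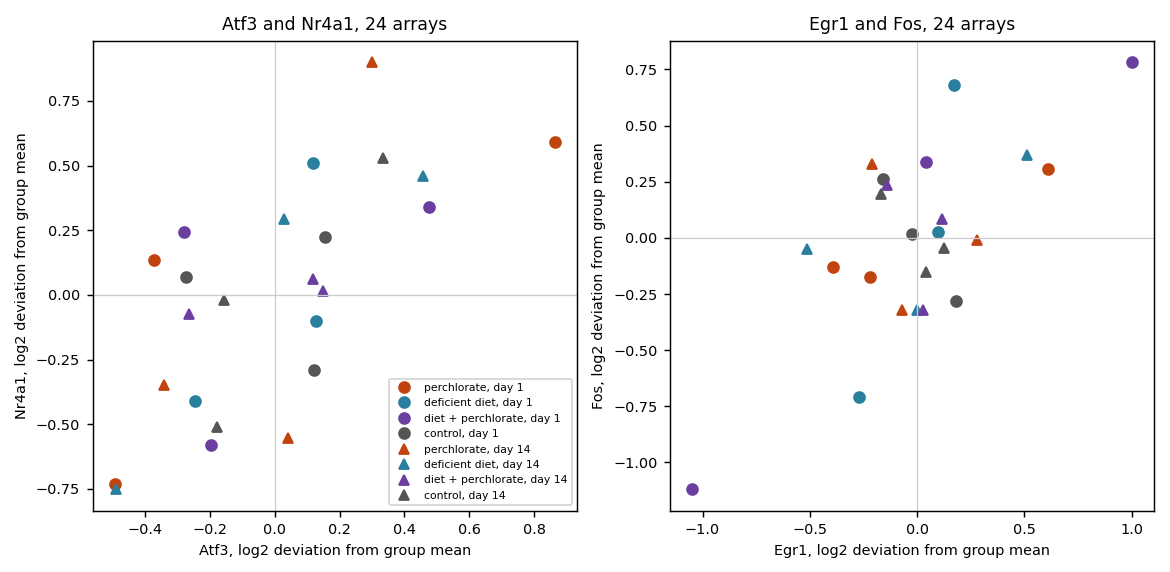
Deviation of each array from its group mean (log2 units) for Atf3 (x axis) against Nr4a1 (y axis), and for Egr1 (x axis) against Fos (y axis), over 24 arrays, with circles for day 1 and triangles for day 14. The points of Egr1 and Fos that lie farthest out, at the lower left and upper right, are both diet plus perchlorate arrays of day 1.

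The genes most like the mean of the 9 tested members, by Pearson's r over the 24 arrays after group means were taken off, were Vwa1 (0.854), Abo (0.827), Spns2 (0.824), Arap3 (0.823) and Chst1 (0.816). Without the 2 arrays that stood apart they were Prkch (0.839), Arap3 (0.836), Vwa1 (0.829), Abo (0.824) and Gimap6 (0.796), over 22 arrays. Vwa1, Abo and Arap3 stood in both sets.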

How the data were processed

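Total RNA of 24 rat thyroid samples was measured on Affymetrix arrays. The deposited table gives a linear intensity for each probe set, made by the authors with the program GCOS, per the submitters' processing notes; its settings are not given in the sources used here. Values were taken as log2(intensity + 16) and quantile normalized, because array medians spanned 0.56. A fold change on that scale understates the change of dim probe sets. After 57 control probe sets of 31099 and those under the 40th percentile of mean signal were left out, 18625 were fitted with limma 3.58.1 in R 4.3.3 (1 mean per group over 24 arrays, eBayes with trend, two-sided, Benjamini-Hochberg). Detection calls were not used, so signal over background is unknown; 3 arrays a group limit the precision. Groups and replicate numbers come from the sample titles. The fit was tested on simulated data. Correlations used 100000 permutations within groups, in Python 3.11.15. Motifs were searched in RefSeq promoters (GRCr8). The 10 genes, the related gene lists and the markers were chosen with earlier results of these data known. The text names the 10 genes, related genes called against control at day 14, and the 5 genes most like the members. Further related genes were called over the 8 groups or between the days, and not all of them are named. Alternatives were the values without quantile normalization, a pseudocount of 1, no filter, array weights, only the groups compared, the mean of all probe sets, and fits without the 2 arrays that stood apart or without each array in turn.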

Additional observations from a re-analysis of the deposited data

How the results depend on the processing

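Differences of members that were called, had an unadjusted p under 0.05 or were 1 or more kept their sign under the alternatives run; smaller differences were not followed, and their sign may change with 1 array. The counts of members called moved as follows. For the combination at day 14 (3 members) the count was 6 with array weights and 6 with only the groups compared. Among the settings other than leaving out each array in turn, the lowest count was 2. The count was 2 to 3 without each array in turn. Egr2 was called in 12 of 12 settings, Atf3 in 13 of 13 and Fos in 5 of 13. For perchlorate at day 14 (1 member) it was 0 with no filter, 3 with array weights, 2 with only the groups compared, 2 with the mean of all probe sets, 2 without the arrays that stood apart, and 0 to 0 without each array in turn. For the combination at day 1 (0 members) it was 2 with array weights, 1 with the mean of all probe sets, 1 without the arrays that stood apart and 0 to 1 without each array in turn, the 1 being Fos without replicate 2. For perchlorate at day 1 (0 members) it was 0 to 1 without each array in turn, the 1 being Egr2 without replicate 16. For the deficient diet at day 14 (0 members) array weights gave 1. For the combination against the deficient diet at day 14 (0 members) array weights gave 3 and only the groups compared gave 1. Between the days (0 members) array weights gave 1 and the fit without the arrays that stood apart gave 1. Over all 8 groups (2 members) the count was 1 with no filter, 4 with array weights and 1 to 4 without each array in turn. The cause of these shifts was not tested. The number of probe sets called moved too: 665 for perchlorate at day 14, with 524 to 1762 under the other settings and 225 to 551 without 1 array, and 1649 for the combination at day 14, with 1163 to 4371 and 808 to 1356. Egr2 had no value with the mean of its probe sets, which fell under the filter. No paired analysis was possible because the groups share no replicate number.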

Other observations

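Of 18625 probe sets, 7 (0.0376%) were higher on each of the 18 treated arrays than on each of the 6 control arrays, Egr2 among them, and 7 were lower. For Egr2 the levels ran from 7.02 to 8.40 on treated arrays, against 6.57 to 6.98 on control arrays, and on the deposited values the lowest treated array was at 112.9, against a highest control of 114.2. The others that were higher with a gene name were Slc5a5, the sodium iodide symporter, Card9, Mab21l3, Slc26a10 and Uroc1. Those that were lower and named were Abcc4, C13h1orf116, Ezr, Nqo1 and Ptgs1, the last by 2 probe sets. This count and these genes were chosen after their values were seen, and no test was made. For the other members, by their brightest probe sets, the treated arrays above every control numbered 13 for Atf3, 11 for Egr1, 10 for Fos, 9 for Nr4a1, 9 for Ier3, 6 for Crem, 5 for Fosl2, 3 for Junb and 1 for Jun, for which control day 1 replicate 22 was among the highest arrays.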
